A study of Homo sapiens with 18 samples.

Results

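Empty vector cells were compared between 2 repeat experiments, the 3 libraries of the third experiment against the 3 libraries of the second, which are 6 of the 18 libraries of the series. The libraries were chosen by their titles. All 6 came from BE(2)-m17, a human neuroblastoma cell line, and all carried the same pair of transposable vectors, pSBbi-Hyg-APP with a codon-optimized APP cDNA and hygromycin resistance, and pSBbi-Pur with puromycin resistance and no insert. The other line of each experiment carried pSBbi-Pur-ABCC1(WT) in place of the empty vector and is used here only where it is named. For every library, 14000000 cells were plated per well with daily medium changes, and RNA was taken on day 4. The labels number the experiments and say nothing more. Here the third is taken to be newly transfected cells and the second to be cells kept frozen, after the order in which the study lists its repeats. The vectors integrate at many places and stable cells were selected with puromycin, and the sources used here do not state that a line was 1 clone. Freezing, the new transfection and the sequencing depth differed together between the experiments and cannot be told apart.

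Neuroblastoma arises from cells of the sympathetic lineage, and its lines keep much of that programme, with the transcription factors PHOX2A, HAND2 and GATA3, the enzymes that make noradrenaline, and the chromogranins of dense-core granules. BE(2) lines carry amplified MYCN, a MYC family transcription factor that drives growth and the synthesis of ribosomes. Libraries of both experiments were made from total RNA with a random-primed stranded kit, so that RNAs without a poly(A) tail are read as well. The data were checked first against the labels. MYCN stood at 5090 ± 445 normalized CPM (SD, n = 3) in the second experiment and at 3720 ± 647 in the third, where CPM is the usual count rate relative to the scaled library size. CHGA, PHOX2A, GATA3, HAND2 and DBH were all detected far above background as well. In bulk samples fewer cells of a type and less RNA per cell cannot be told apart. The study's methods describe a weekly plating of a well per line, while the labels do not tie a library to a week, so p-values measure the spread between these libraries of a line. Counts on the codon-optimized ABCC1 insert were 2, 8 and 3 in the second experiment and 1, 0 and 3 in the third, against 51035 to 148783 in the ABCC1 libraries of the same experiments, as the labels say.

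The depth differed between the groups. The libraries of the second experiment held 19577853, 27815432 and 21108840 assigned read pairs, and those of the third 9907135, 11819771 and 8866994. Background was measured on 311 olfactory receptor genes, receptors of the nose that other tissues rarely use, as counts per kilobase of exon. On library totals it came to 0.791, 0.541 and 0.582 CPM per kilobase in the second experiment and to 1.83, 1.42 and 1.85 in the third, where its mean was 2.67 times that of the second. The groups did not overlap, and the exact two-sided permutation p was 0.1, the smallest that 3 libraries against 3 can give. After TMM scaling, which shifts library sizes so that the bulk of genes match, the ratio was 1.61. The TMM factors were 0.874, 0.789 and 0.682 in the second experiment and 1.36, 1.17 and 1.33 in the third, and the values below are given beside those of other scalings.

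The selectable markers of the vectors were lower in the third experiment. The puromycin resistance gene had 217626, 221614 and 223104 counts in the second experiment and 28372, 39064 and 31539 in the third, or 12800 ± 2690 and 2530 ± 379 normalized CPM, a 5.05-fold difference with no overlap. On library totals, that is without scaling factors, the difference was 3.05-fold. The hygromycin resistance gene was lower too, at 793 ± 180 and 287 ± 17.5 CPM, 2.76-fold on the scaled values and 1.67-fold on library totals. The APP transgene was read at 315 ± 27.0 and 261 ± 70.1 CPM, where the groups overlapped, and on library totals it was higher in the third experiment, at 285 to 400 against 228 to 257 CPM. The exact permutation p was 0.1 for each resistance gene and 0.4 for the APP transgene on scaled values.

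By the quasi-likelihood test of edgeR, adjusted by Benjamini-Hochberg over 37283 Ensembl genes, 7219 genes (19.4%) differed at an adjusted p of at most 0.05. Of these, 2152 (5.77%) were higher in the third experiment and 5067 (13.6%) were lower. At an adjusted p of at most 0.001 there were 2853 genes (7.65%), and 1071 (2.87%) also had an absolute log2FC of at least 1.5. Higher calls made up 29.8% of all calls with TMM factors, 23% with RLE factors, 90.0% with library totals and 40.8% when the 7836 expressed genes, those at 5 times background or more, were scaled and fitted on their own, where 3789 (48.4%) were called, 1545 (19.7%) higher and 2244 (28.6%) lower. Library totals called 18964 genes (50.9%), 17064 (45.8%) higher and 1900 (5.1%) lower. The median log2FC over all genes tested was 0.18 with TMM and 0.90 with library totals, so that direction was read for each gene and list under every scaling. Among the 7836 expressed genes, 1619 (20.7%) were called lower under all 4 scalings and 25 (0.319%) were called higher under all 4. Expression was judged on the mean of the 6 libraries, so a gene can pass through the group where it is high. Of the 25 higher genes 12 were under 5 times background in the second experiment, and of the 1619 lower genes 650 were under it in the third.

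**Figure D1:**
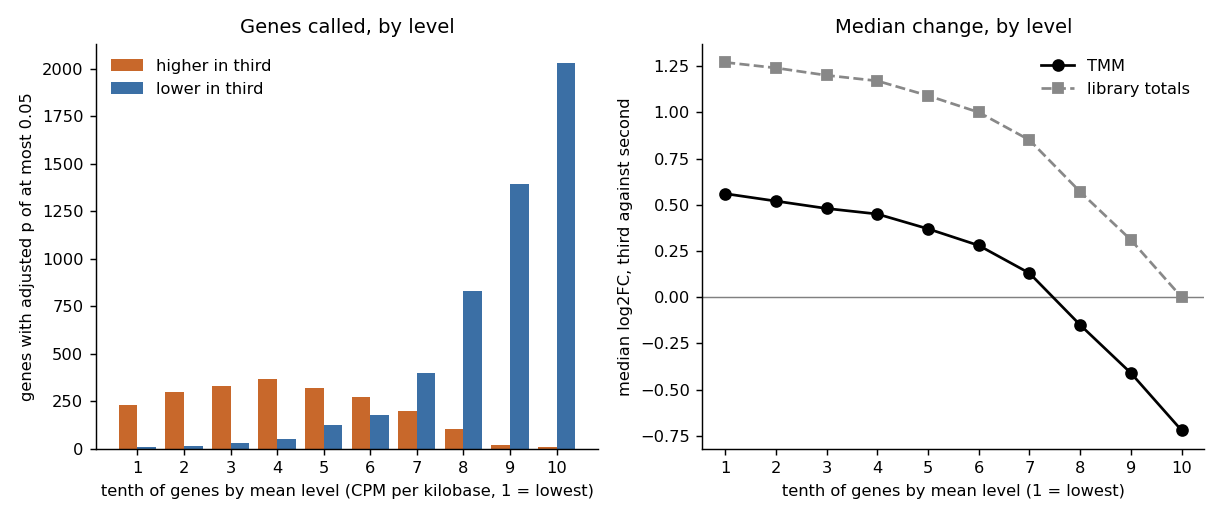
Genes called (left) and median log2FC (right) of the third against the second experiment in 10 equal bins of the 37283 genes tested, ordered by mean level in CPM per kilobase. Orange and blue bars count genes higher and lower in the third experiment, and the black and grey lines give the medians with TMM and with library totals. Lower calls rise from 12 in the lowest bin to 2030 in the highest, where the TMM median is -0.72 and that of library totals 0.00.

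The direction of change followed the level of the gene. In the lowest of 10 bins by level, up to 0.758 CPM per kilobase, the median log2FC was 0.56, with 229 genes called higher and 12 lower. In the highest bin, from 10.9 CPM per kilobase, the median was -0.72, with 11 genes called higher and 2030 (54.4%) lower, as the plot of change by level shows, and in the bin below it 37.3% were lower. Counts of lower members in lists of abundant genes stand beside these shares as well as beside the 13.6% of all genes. By gene type, 4361 of 18258 protein-coding genes were lower and 1267 higher, while 269 of 4823 lincRNA genes were higher and 90 lower. The small nucleolar RNAs, which guide chemical modification of ribosomal RNA, had 118 of 215 lower (54.9%), 2 higher and a median log2FC of -1.17, and -0.43 on library totals. Their median level of 28.5 CPM per kilobase lies in the highest bin, and their share lower is near that of the bin.

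Direction followed base composition as well. Over 7510 expressed genes with a known transcript, log2FC correlated with GC content with a Spearman rho of 0.435 and a Pearson r of 0.386, a description across genes that share the same 6 libraries. Genes were split into 5 bins by GC content. In the lowest bin, 23.1 to 40.7%, the median log2FC of the expressed-gene fit was -0.60, with 954 genes lower and 39 higher. In the bin from 51.0 to 57.5% it was 0.24, with 210 lower and 492 higher. The part of base composition in the gene results was not tested beyond an added fit with a per-library offset for GC content and length. That fit called 3152 of 7510 genes (42.0%), 1537 (20.5%) higher and 1615 (21.5%) lower. Of 1588 genes lower under all 4 scalings that it could take, it called 1158 lower, and its values are given below as the GC offset.

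**Figure D2:**
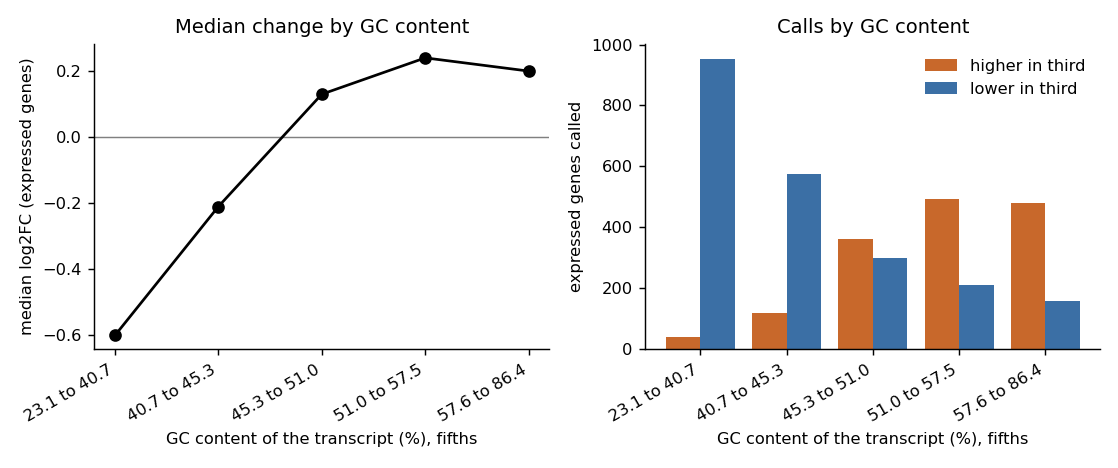
Change of the expressed genes by GC content of their longest annotated transcript, in 5 bins. The left panel gives the median log2FC of the third against the second experiment and the right panel the genes called higher (orange) and lower (blue). The median goes from -0.60 in the lowest bin to 0.24 and 0.20 in the 2 highest.

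Ribosomal protein genes gave the broadest fall of the 39 gene lists examined. Cytosolic ribosomes are built from small and large subunit proteins, named RPS and RPL, and their mRNAs are among the most abundant of a growing cell. Of 58 ribosomal protein genes tested, 49 were lower in the third experiment, 0 were higher and 9 were not called, against 13.6% lower of all genes. The median log2FC of the list was -1.59 with TMM, -0.87 with library totals, -1.06 among the expressed genes and -0.89 with the GC offset, so the direction did not turn under any of them. Under all 4 scalings, which are TMM, RLE factors, library totals and the expressed-gene fit here and throughout, 39 of the genes were called lower. Together the 58 genes took 103000, 102000 and 132000 normalized CPM in the second experiment and 32200, 44500 and 35300 in the third, with a wide gap between the groups.

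Among the small subunit proteins, RPS24 was at 2880, 2450 and 3870 CPM in the second experiment and at 393, 540 and 489 CPM in the third. Its log2FC was -2.69 ± 0.30 (SE), and it was -1.96 on library totals and -1.73 with the GC offset. RPS25 went from 1080 ± 223 to 176 ± 36.2 CPM and RPS12 from 1320 ± 303 to 218 ± 47.4 CPM, with log2FC of -2.61 and -2.60. RPS7 fell by 2.43 on the log2 scale. In the large subunit, RPL7 and RPL21 were among the 12 largest falls of all genes named by the rule, with log2FC of -2.77 and -2.75, and RPL23 went from 3130 ± 596 to 498 ± 72.9 CPM, a log2FC of -2.65 ± 0.30. With the GC offset RPL7 was at -1.43 and RPL21 at -1.99. RPL13A, a large subunit protein read at 12000 ± 2300 CPM in the second experiment, was 4.26-fold lower in the third, and RPL5, which binds 5S ribosomal RNA, was 5.0-fold lower. The fall was not even across the ribosome. RPLP0, a protein of the stalk that recruits elongation factors, was at 4420, 4720 and 5200 CPM against 2280, 2950 and 2650, a log2FC of -0.86 with TMM that was not called on library totals (-0.14). RPL7A, at -0.56, was not called and was at 0.15 on library totals. RPS10 had the smallest change, at -0.49, but was read at only 5.54 ± 0.993 and 3.92 ± 0.506 CPM, and its exons overlap the readthrough gene RPS10-NUDT3 on the same strand.

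Ribosomal protein genes have many processed copies in the genome, and reads that fit a gene and its copies equally well can be lost or moved by counting. For that reason RPL7 and RPL21 in particular are uncertain: in the first experiment, made with another kit, their mean levels were 2.73 and 7.56 CPM. The copies themselves, 723 ribosomal protein pseudogenes by their symbols, had 51 lower and 16 higher calls, with a median log2FC of 0.30. Their summed level was 2310, 2020 and 2620 CPM in the second experiment and 1330, 1330 and 1360 CPM in the third, and so was lower as well.

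The mRNAs of ribosomal proteins start with a cytosine followed by a run of pyrimidines, through which their translation responds to mTOR. The 30 bases around the annotated start of the gene, 15 before it and 15 from it on, were searched on both strands for CTTTTC or CTTTCC, a window that held both being counted once. The match was found in 20 of 46 ribosomal protein promoters with a RefSeq entry (43.5%), in 2 of 33 promoters of nuclear respiratory chain genes (6.06%) and in 1243 of 27305 RefSeq promoters (4.55%). RPL7 and RPL23, which fell as far, had no window in the RefSeq table used, and RPL21 was not on the list. The windows of the 4 listed genes with the largest falls among those with a window, followed by those of the 2 with the smallest change, are printed 5′ to 3′ on the strand of the gene from GRCh38.p14, with a match in capitals. Among the windows shown, a match was present in 2 of the first 4 and in both of the last.
RPS24, chr10:78033848-78033877, + strand: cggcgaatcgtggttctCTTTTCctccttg
RPS25, chr11:119018329-119018358, - strand: tctgagcagcgcttcctttttgtccgacat
RPS12, chr6:132814554-132814583, + strand: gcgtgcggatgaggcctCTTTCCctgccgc
RPS7, chr2:3575245-3575274, + strand: gtttccgccctcctcctcgcgctgtttccg
RPL7A, chr9:133348203-133348232, + strand: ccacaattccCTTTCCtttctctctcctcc
RPS10, chr6:34426055-34426084, - strand: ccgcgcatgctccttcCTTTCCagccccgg

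EIF3E, one of the 12 largest falls named by the rule and a subunit of the initiation factor that brings the small subunit to the mRNA, was at 1110, 1100 and 1610 CPM in the second experiment and at 132, 212 and 159 CPM in the third. That is a 7.60-fold fall, with a log2FC of -2.93 ± 0.29 and an adjusted p of 3.87e-09, and of -1.81 with the GC offset. EEF1A1, the elongation factor that delivers aminoacyl-tRNA, fell 3.14-fold, from 10500 ± 2300 to 3350 ± 782 CPM, and NPM1, a nucleolar protein of ribosome assembly, fell 4.03-fold. EEF2, which moves the ribosome along the mRNA, had a smaller fall of 0.89 on the log2 scale that was not called on library totals. EEF1A1, EEF2 and NPM1 were named after their values were seen. ESF1 and NIFK, nucleolar proteins, were among the 12 largest falls, at 297 ± 57.2 against 42.1 ± 7.18 CPM and at 287 ± 61.8 against 43.4 ± 12.2 CPM. Their log2FC of -2.81 and -2.72 became -1.27 and -1.36 with the GC offset. MRPL50, a protein of the mitochondrial ribosome, went from 153, 155 and 204 CPM to 19, 26.8 and 20.1 CPM, a 7.76-fold fall. Its log2FC was -2.96 with TMM and -1.41 with the GC offset. TRMT10C, a subunit of mitochondrial RNase P, fell 7.28-fold, a log2FC of -2.86 that was -1.44 with the GC offset. None of these genes overlapped between the groups.

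GPR22, an orphan receptor, met the rule through the second experiment, where it was at 16.7 ± 5.82 CPM and 5.56 times the background density. In the third it was at 1.58 ± 0.553 CPM, 0.326 times that density, and it was not among the expressed genes. ASNSD1 fell by 2.76, DRAM2 by 2.71 and ZNF22 by 2.69 on the log2 scale, and they were at -1.37, -1.59 and -1.46 with the GC offset. In the third experiment DRAM2 and ZNF22 stood at 1.55 and 1.8 times the background density. The exons of DRAM2 overlap CEPT1, those of ZNF22 overlap ZNF22-AS1 and those of NIFK overlap NIFK-AS1, each on the other strand, and without strand in the counting their reads cannot be assigned to one of the pair.

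The respiratory chain joins subunits from the nucleus with 13 proteins made from mitochondrial DNA. Of 43 nuclear subunits tested, 35 were lower and 0 higher, with a median log2FC of -1.32, and 23 were called lower under all 4 scalings. On library totals 23 were lower and 4 higher with a median of -0.58, and the median was -0.47 with the GC offset. NDUFA1 of complex I was at 53.4, 59.9 and 74.1 CPM in the second experiment and at 8.67, 13.6 and 10.8 CPM in the third, with a log2FC of -2.50 ± 0.21. UQCRB of complex III fell from 587 ± 145 to 93.5 ± 18.9 CPM, COX7C of complex IV from 1370 ± 342 to 256 ± 31.3 CPM and ATP5PO of the ATP synthase from 133 ± 29.8 to 25.4 ± 5.16 CPM. For each of these the highest library of the third experiment lay below the lowest of the second.

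The genes of the mitochondrial DNA were all below 0 with TMM, with log2FC from -1.17 to -0.34, and fewer of them were called. Of the 13 proteins, 3 were lower, 7 without replicate 2 of the third experiment and 1 without replicate 2 of the second or replicate 1 or 3 of the third. The list median was -0.51 with TMM, and it was 0.21 on library totals, 0.03 among the expressed genes and 0.34 with the GC offset. In the ABCC1 cells, in a fit over the 12 libraries of both lines, 12 of the 13 were lower, with a median of -0.75. MT-ND3, a subunit of complex I, was the member called under all 4 scalings, although it was at -0.05 with the GC offset. It stood at 367, 409 and 463 CPM against 194, 191 and 167 CPM. MT-CO1, the catalytic subunit of complex IV, was at 3450, 5920 and 4940 CPM in the second experiment and at 3300, 4750 and 2710 CPM in the third, with groups that overlap. The share of counts on the mitochondrial chromosome was 3.73 ± 0.450% and 3.26 ± 0.492%.

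**Figure D3:**
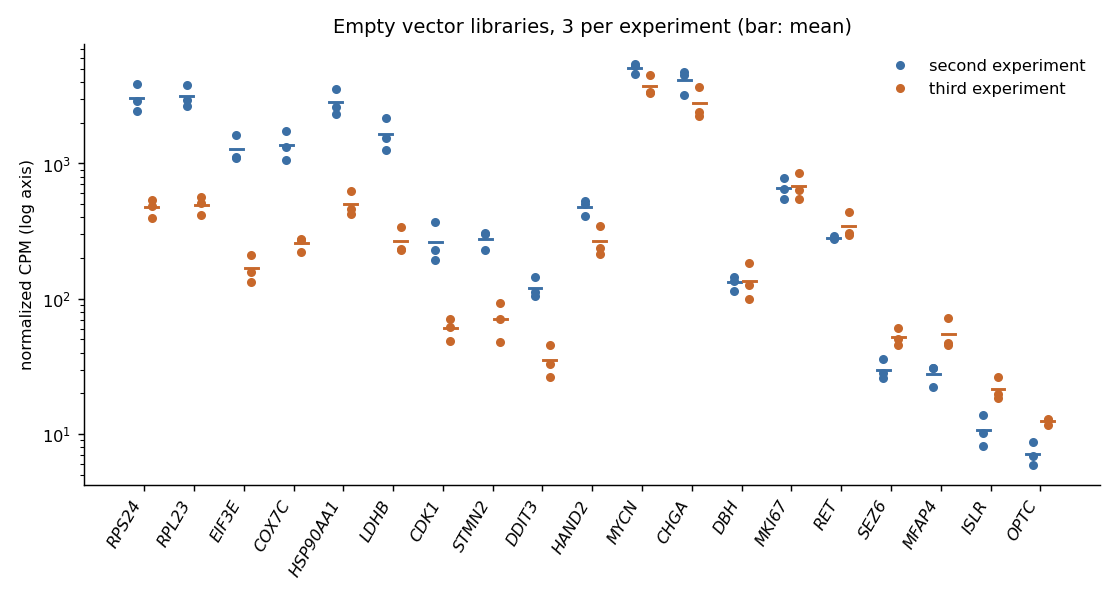
Normalized CPM of 19 genes in the 6 empty vector libraries, on a log axis. Blue points are the second and orange points the third experiment, and the bars are means of 3 libraries. RPS24, RPL23, EIF3E, COX7C, HSP90AA1, LDHB, CDK1, STMN2 and DDIT3 are separated by a wide gap, DBH, MKI67 and CHGA overlap, and SEZ6, MFAP4, ISLR and OPTC are higher in the third experiment.

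Structural RNAs and histone genes, many of whose transcripts have no poly(A) tail, were examined as lists, while of 176 snRNA genes tested 36 were lower and 2 higher. Of 25 abundant nuclear and structural RNAs tested, 19 were lower and 0 higher, with a median log2FC of -1.37, of -0.61 on library totals and of -0.81 with the GC offset. 7SK, the RNA that holds the elongation factor P-TEFb inactive, was at 26700, 18600 and 33700 CPM in the second experiment and at 10200, 9730 and 11600 CPM in the third, a 2.51-fold fall. RMRP, the RNA of RNase MRP, which cuts the ribosomal RNA precursor, fell 2.31-fold, but on library totals the fall of 0.47 on the log2 scale was not called. Of that list, the snoRNA host genes SNHG1, SNHG6, SNHG8 and GAS5 fell by 1.83, 1.97, 1.83 and 1.81 on the log2 scale and were called lower under all 4 scalings. MALAT1, a nuclear RNA of speckles, was at 7460 ± 1100 and 5150 ± 543 CPM and was not called. Of 16 replication-dependent histone genes tested, 12 were lower and 0 higher with a median of -0.85 that was -0.10 on library totals, and 5 were called under all 4 scalings. The 12 became 6 without replicate 3 of the second experiment and 7 without replicate 1 of the third. H2BC5 was at 484, 525 and 757 CPM against 175, 239 and 186 CPM, and H4C3 fell from 744 ± 249 to 310 ± 15.1 CPM.

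Several chaperones of the cytosol were lower in the third experiment. Of 22 heat shock response genes tested, 13 were lower and 0 higher, with a median of -0.72. On library totals 7 were lower and 6 higher with a median of -0.01, with the GC offset the median was 0.04, and 5 were called lower under all 4 scalings. Without replicate 1 or 3 of the third experiment 8 were lower, and the share of the list is near that of the highest level bin. HSP90AA1, the inducible cytosolic HSP90, was at 2340, 2600 and 3560 CPM in the second experiment and at 423, 624 and 464 CPM in the third, a log2FC of -2.49 ± 0.30. DNAJA1, a partner of HSP70, fell 3.97-fold and HSF2, a heat shock transcription factor, fell 3.8-fold. Of 23 genes of the endoplasmic reticulum unfolded protein response, 6 were lower and 0 higher with a median of -0.34, and with the GC offset 10 were higher, 1 was lower and the median was 0.34. The 6 became 11 without replicate 1 of the second experiment and 2 without replicate 1 or 3 of the third. HSPA5, the main chaperone of that compartment, was at 279, 497 and 425 CPM and at 307, 458 and 303 CPM. DNAJB9 and SELENOK fell 2.58-fold and 3.32-fold and were called under all 4 scalings, although DNAJB9 was at -0.06 with the GC offset.

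Single members of stress and metabolic lists fell by more than 1.5 on the log2 scale. DDIT3, the transcription factor CHOP, went from 113, 105 and 145 CPM to 26.5, 45.8 and 32.8 CPM, a log2FC of -1.79 ± 0.23. Of the 30 ATF4 response genes with it, 8 were lower and 0 higher with a median of -0.18, while 11 were higher and 5 lower in the expressed-gene fit, and on library totals 17 were higher and 1 lower with a median of 0.54. LDHB, which converts lactate and pyruvate, fell from 1650 ± 456 to 269 ± 63.4 CPM, and SLC16A1, a carrier of lactate, fell 4.82-fold. Of 18 glycolysis genes tested, 6 were lower and 0 higher. PMAIP1 and TRIAP1, p53 targets that promote and restrain apoptosis, fell 5.36-fold and 4.38-fold, among 7 of 25 p53 targets lower and 1 higher. TXN, thioredoxin, fell 5.62-fold among 10 of 30 NRF2 targets lower and 1 higher. BNIP3, a target of HIF that acts in mitophagy, fell 3.41-fold among 10 of 27 hypoxia genes lower and 0 higher. B2M, the light chain of MHC class I, was at 223, 226 and 361 CPM and at 56.2, 63.2 and 61.0 CPM. All 8 of these genes were called lower under all 4 scalings with no overlap of the groups. In the ATF4, glycolysis, p53, NRF2 and hypoxia lists the share lower ran from 26.7 to 37.0%. Beside it stand 13.6% of all genes and 37.3% and 54.4% in the 2 highest level bins. The medians of the ATF4, glycolysis, p53, NRF2 and hypoxia lists were below 0 with TMM and above 0 on library totals, and that of the 15 MHC class I genes was 0.40 and 1.14. On library totals more members were higher than lower, with 6 and 2 of the glycolysis genes, 10 and 3 of the p53 targets, 13 and 3 of the NRF2 targets and 10 and 2 of the hypoxia genes. With the GC offset the counts were 2 and 5, 3 and 3, 7 and 6, and 3 and 2. The counts of lower members rested on single libraries. Without replicate 1 of the third experiment they were 3 of the ATF4, 4 of the p53, 3 of the NRF2 and 5 of the hypoxia genes, and without its replicate 3 they were 5, 5, 4 and 6. Without replicate 3 of the second experiment they were 5, 4, 6 and 7, and without its replicate 2 the NRF2 count was 6.

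For genes of neuroblastoma identity the direction depended on the scaling. Of 24 adrenergic identity genes tested, 2 were lower and 0 higher with a median of -0.32, and with the GC offset 12 of the 20 expressed members were higher, 1 was lower and the median was 0.35. The 2 became 11 without replicate 1 of the second experiment, 1 without its replicate 2, 6 without replicate 2 of the third and 0 without replicate 1 or 3 of the third. HAND2 was lower with TMM, at 407, 531 and 504 CPM against 239, 347 and 214 CPM, a log2FC of -0.85 that became -0.14 on library totals and was not called there. PHOX2A was at 241 ± 45.4 and 214 ± 56.2 CPM and GATA3 at 256 ± 64.6 and 227 ± 59.7 CPM. MYCN had a log2FC of -0.45 ± 0.30 with TMM and of 0.26 on library totals, and was called under neither.

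Of 16 genes of catecholamine synthesis and transport, 5 were lower and 1 higher, with a median of -0.22, while on library totals 8 were higher and 2 lower with a median of 0.49. Without replicate 1 or 3 of the third experiment 2 and 3 were lower. TH, the rate-limiting enzyme, was at 18.8, 23.6 and 25.2 CPM in the second experiment and at 20.7, 28.9 and 24.4 CPM in the third. DBH, which makes noradrenaline from dopamine, was at 132 ± 16.1 and 136 ± 42.6 CPM. Neither was called with TMM, at log2FC of 0.13 and 0.05, while on library totals both were higher, by 0.86 and 0.76. GCH1 and PTS, which make the cofactor tetrahydrobiopterin that TH needs, fell by 1.2 and 1.75 on the log2 scale and were called lower under all 4 scalings, with GC offset values of -0.12 and -0.55. SLC6A3, the dopamine transporter, was the member called higher, at 5.66 ± 2.37 and 12 ± 1.41 CPM, which is 1.53 and 2.01 times the background density.

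Of 23 dense-core granule and secretion genes tested, 8 were lower (34.8%) and 0 higher, with a median of -0.42, while on library totals 6 were higher and 2 lower with a median of 0.28. In the 2 highest level bins 37.3% and 54.4% of genes were lower. Without replicate 2 of the second experiment or replicate 1 or 3 of the third 4 were lower, and without replicate 3 of the second 5 were. VIP, a neuropeptide, was at 24.7, 17.3 and 23 CPM against 4.22, 4.04 and 6.52 CPM, and CPE, the carboxypeptidase that trims prohormones, fell 2.24-fold. Both were called under all 4 scalings. CHGA, at 4170 ± 823 and 2780 ± 781 CPM, and SCG2, at 1130 ± 406 and 683 ± 171 CPM, overlapped between the groups and were not called with TMM. Of 19 alternatives, 7 called SCG2 and 2 called CHGA. Of 27 neuronal cytoskeleton genes 6 were lower, with 11 without replicate 1 of the second experiment and 3 without replicate 1 of the third. The direction turned with the scaling, as 10 were higher and 2 lower in the expressed-gene fit and 12 higher and 2 lower on library totals, while the list median went from -0.32 with TMM to 0.15 and 0.40. STMN2, a microtubule protein of growing neurites, went from 230, 300 and 304 CPM to 70.3, 92.8 and 48.3 CPM, a 3.94-fold fall called under all 4 scalings.

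**Figure D4:**
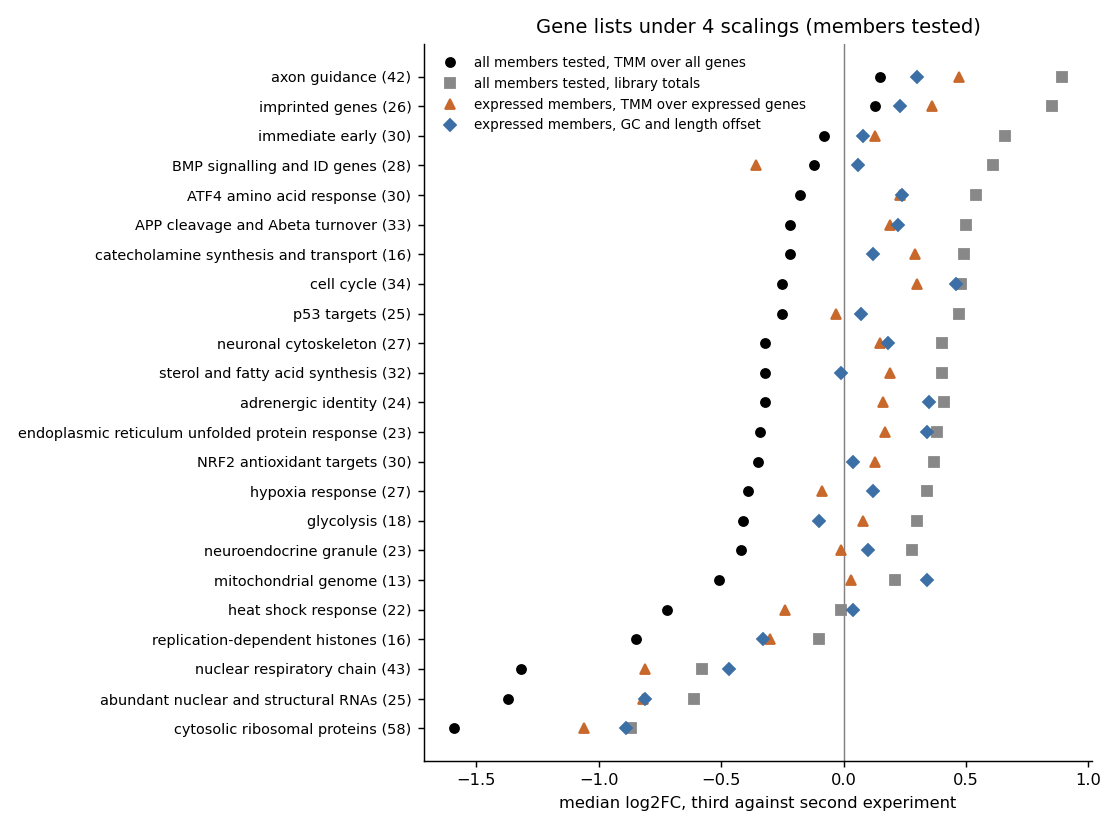
Median log2FC of the third against the second experiment for the 23 gene lists with at least 10 expressed members, under 4 scalings. In this figure the GC offset stands in place of RLE factors. Black circles and grey squares are medians over all members tested with TMM and with library totals, and orange triangles and blue diamonds are medians over the expressed members, scaled on expressed genes alone and with the GC and length offset. The ribosomal proteins, the nuclear respiratory chain, the structural RNAs and the histones lie below 0 under all 4 shown here, axon guidance and imprinted genes lie above 0, and the other lists lie on both sides of 0.

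Proliferation genes gave no common direction across scalings. Of 34 cell cycle genes tested, 7 were lower (20.6%) and 0 higher with a median of -0.25, while among the 32 expressed members 14 were higher and 2 lower with a median of 0.30, and with the GC offset 18 were higher and 3 lower. Of all genes 13.6% were lower, and 37.3% and 54.4% in the 2 highest level bins. The 7 became 14 without replicate 1 of the second experiment and 3 without its replicate 2 or 3 or without replicate 1 or 3 of the third. MKI67, the marker of cycling cells, was at 545, 775 and 647 CPM and at 639, 846 and 547 CPM. CDK1, the kinase of mitotic entry, and CENPE, a kinetochore motor, did fall under all 4 scalings, CDK1 from 264 ± 92.8 to 60.7 ± 11.4 CPM and CENPE from 316 ± 112 to 73.0 ± 10.2 CPM. Over all alternatives the size of the fall varied, with log2FC from -2.31 to -0.67 for CDK1 and from -2.32 to -1.0 for CENPE. TOP2A was lower with TMM at -0.84, but its groups overlapped and it was not called on library totals.

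With TMM calls, 9 protein-coding genes met the rule for rises and 3677 that for falls, and 6 of the 9 were called higher under all 4 scalings. These counts combine the scaling with the other conditions of the rule. Without those conditions TMM called 2152 genes higher and 5067 lower, the expressed-gene fit 1545 and 2244, the GC offset 1537 and 1615 and library totals 17064 and 1900. ISLR, a secreted protein with leucine-rich repeats, was at 8.18, 13.8 and 10.1 CPM in the second experiment and at 19.7, 18.4 and 26.3 CPM in the third. Its log2FC was 1.00 ± 0.20 with TMM, 1.57 among the expressed genes and 1.55 with the GC offset. MFAP4, a protein of elastic microfibrils, was at 22.3, 30.6 and 31.0 CPM against 47.0, 71.9 and 45.6 CPM, a log2FC of 0.97. SEZ6, a neuronal membrane protein, rose from 29.9 ± 5.0 to 52.5 ± 7.92 CPM.

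OPTC, a small proteoglycan of the eye, rose from 7.16 ± 1.46 to 12.5 ± 0.734 CPM, S1PR2, a receptor of sphingosine 1-phosphate, from 5.20 ± 0.786 to 8.77 ± 0.404 CPM, and TCHH, trichohyalin of the hair follicle, from 29.1 ± 8.51 to 49.6 ± 10.6 CPM. TCHH was not called with the GC offset, and exons of S1PR2 overlap DNMT1 while those of MFAP4 overlap MAPK7 on the other strand. TLE3, a corepressor, MSI1, an RNA-binding protein of neural progenitors, and PLXNA2, a semaphorin receptor, had log2FC of 0.65, 0.59 and 0.57 with TMM and were not called with RLE factors, at 0.56, 0.50 and 0.48. The rule took only genes whose groups do not overlap and that reach 5 times background. The levels of the 9 ran from 5.09 times the background density of the third experiment for PLXNA2 to 19.4 times for MFAP4. ISLR went from 4.91 to 6.12 times background and MFAP4 also stood further above it in the third experiment. For the others these multiples were close in both experiments, such as 5.18 and 5.46 times for TCHH, and those of TLE3, MSI1 and PLXNA2 were lower in the third, at 5.35, 5.78 and 5.09 times against 5.51, 6.18 and 5.53.

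In the first experiment, made with another kit on another sequencer and not tested here, ISLR stood at 9.44 ± 1.11, MFAP4 at 153 ± 11.3 and SEZ6 at 122 ± 2.81 CPM of library totals. TCHH was at 0.229 ± 0.0621 CPM there and OPTC had no counts. Of the 25 genes called higher under all 4 scalings, the 19 that do not code for proteins were noncoding RNAs, pseudogenes and genes without a symbol.

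In the lists with many higher calls most members were under 5 times background. Of 32 collagen and matrix genes 10 were higher and 0 lower, with a median of 0.34, of 19 sodium and calcium channels 7 were higher and 0 lower, and of 39 HOX genes 8 were higher and 2 lower. These shares exceed the 5.77% of all genes called higher, yet 6, 2 and 4 members of the lists passed the filter at 5 times background, of which 1, 0 and 2 were higher with the GC offset. On library totals 29, 17 and 31 members were higher, with medians of 1.08, 1.17 and 1.30, beside 45.8% of all genes. The 10, 7 and 8 became 4, 4 and 2 without replicate 2 of the second experiment, 6, 5 and 5 without its replicate 3, 6, 6 and 0 without replicate 1 of the third and 5, 4 and 2 without its replicate 3, and the HOX count was 13 without replicate 1 of the second. COL1A1, at 20.7 ± 4.78 and 29.9 ± 3.63 CPM, was 2.32 times the background density in the third experiment, and SCN11A, at 5.54 ± 1.41 and 13.2 ± 2.01 CPM, was 1.31 times it. HOXD8, a homeobox factor, went the other way, from 48.3, 55.1 and 85.7 CPM to 23.3, 22.7 and 20 CPM. Of 24 trophic factor receptors 6 were higher and 0 lower, 7 of the 9 expressed members were higher in the expressed-gene fit, and on library totals 23 of the 24 were higher with a median of 0.97. With TMM 1 to 5 were higher with a library left out, 1 without replicate 2 of the second or replicate 1 or 3 of the third experiment and 3 without replicate 3 of the second or 2 of the third. RET, the GDNF receptor, and ALK were at 283 ± 7.58 and 347 ± 76.6 and at 49.4 ± 0.182 and 48.0 ± 2.11 CPM and were not called with TMM.

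The study asked how ABCC1 bears on APP processing. In the empty vector cells, endogenous APP was at 2950, 4030 and 3740 CPM in the second experiment and at 2530, 3850 and 2430 CPM in the third, with a log2FC of -0.28 ± 0.30. It was 0.43 on library totals and 0.24 among the expressed genes and was called under none of these. Endogenous ABCC1 was at 109 ± 11.9 and 90.5 ± 16.8 CPM. Of 33 genes of APP cleavage and Abeta turnover, 5 were lower (15.2%) and 2 higher (6.06%) with a median of -0.22, near the 13.6% and 5.77% of all genes, and on library totals 21 were higher, 0 were lower and the median was 0.50. Without replicate 1 or 3 of the third experiment 3 were lower and 0 higher, and without replicate 2 of the second 0 were higher. APH1A and PSENEN, subunits of gamma-secretase, fell by 0.94 and 1.08 on the log2 scale with TMM, and their falls of 0.21 and 0.32 on library totals were not called. ADAM10, the main alpha-secretase, was lower with TMM, at -0.70, and at 0.03 on library totals. BACE1, the beta-secretase, was at 60.6 ± 13 and 65.3 ± 8.35 CPM and was not called with TMM. Over 19 alternatives its log2FC ran from -0.01 to 0.82, and 4 of them called it higher. Of 12 drug efflux transporters 9 were higher and 0 lower on library totals, with a median of 0.82. With TMM 1 was higher and 1 lower, and neither was called without replicate 2 of the second or replicate 1 or 3 of the third experiment, while the higher one was lost without replicate 3 of the second as well and 2 were higher without replicate 1 of the second or 2 of the third.

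Markers of other cell types were read near background. Of the 5 lists of Schwann, leukocyte, endothelial, epithelial and erythroid markers, 31 genes were tested, 7 were higher (22.6%, against 5.77% of all genes) and 0 lower, and 1 reached 5 times background. On library totals 23 were higher and 0 lower. The summed level of 9 leukocyte markers was 25.1 to 29.8 CPM in the second and 39.4 to 44.7 CPM in the third experiment. Of 9 fibroblast markers 3 were higher and 2 lower with a median of 0.35, and on library totals 6 were higher and 1 lower. One of the lower members, LUM, a matrix proteoglycan, went from 28.4, 64.6 and 79.6 CPM to 12.8, 19.7 and 14.2 CPM, and was at -0.30 and not called with the GC offset. The summed level of the fibroblast list was 193 to 278 CPM and 170 to 209 CPM, and its part in the results was not tested.

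The ABCC1 cells of the same experiments are separate libraries, and their change was set beside that of the empty vector cells. In them 14255 of 41448 genes (34.4%) differed between the experiments, 7669 (18.5%) higher and 6586 (15.9%) lower. Among the genes tested in both lines, of the 5067 lower in the empty vector cells, 4566 were lower in the ABCC1 cells as well, 90.1% of the first set and 69.4% of the second. Of the 2152 higher genes 1367 were shared, 63.5% and 18.8%. The median log2FC of the ribosomal proteins in the ABCC1 cells was -1.54, with RPS24 at -2.61, and that of the nuclear respiratory chain was -1.17. ISLR, by contrast, was at -0.02 and MSI1 at -0.10 in the ABCC1 cells, although the test of the difference between the lines did not call either.

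The interaction of experiment and line, fitted over the 12 libraries, tested whether a change differed between the lines. It was called for 3 of 41448 genes (0.00724%), ANXA10, JCHAIN and NPY, while 2631 genes (6.35%) had an unadjusted p of at most 0.05. In simulated data the same test recovered 15% of differences of 1 log2 unit and 67% of those of 2 log2 units, so smaller differences were mostly beyond its reach.

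ANXA10, a calcium-dependent membrane-binding protein, was read 168, 294 and 277 times in empty vector cells of the second experiment and 26, 31 and 21 times in those of the third. In the ABCC1 libraries it had 12, 16 and 17 counts in the second experiment and 35, 23 and 28 in the third. Its change in the empty vector cells was -2.82 and the interaction -4.14, with an adjusted p of 6.03e-05 from edgeR's quasi-likelihood test. JCHAIN, the chain that joins IgA and IgM, had 72, 127 and 111 counts, then 24, 14 and 15 counts, against 10, 10 and 15 and then 38, 33 and 30 counts in the ABCC1 cells, with an interaction of -4.05. Per kilobase, ANXA10 lay at 9.59 times and JCHAIN at 4.31 times the background density in the second experiment, and at 0.831 and 0.612 times it in the third. In the ABCC1 cells, on library totals, ANXA10 was at 1.02 and then 1.05 times background and JCHAIN at 0.838 and then 1.33 times, while the background itself went from 0.293 to 1.22 CPM per kilobase. Both genes were thus above background in the empty vector cells of the second experiment and near or below it in the other 3 groups. The part of the background in the rise of the ABCC1 cells, which enters the interaction, was not tested. In the empty vector cells of the first experiment ANXA10 had 201 to 297 counts and JCHAIN 81 to 115.

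NPY, a neuropeptide of sympathetic neurons, fell further in the ABCC1 cells than in the empty vector cells. In the empty vector cells it went from 23.6, 21.7 and 22.4 CPM to 9.93, 14.4 and 13.6 CPM, a log2FC of -0.84 that was -0.13 and not called on library totals. In the ABCC1 cells the counts were 1701, 1004 and 953 and then 112, 152 and 124, a log2FC of -2.84, so that the interaction was 2.01.

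**Figure D5:**
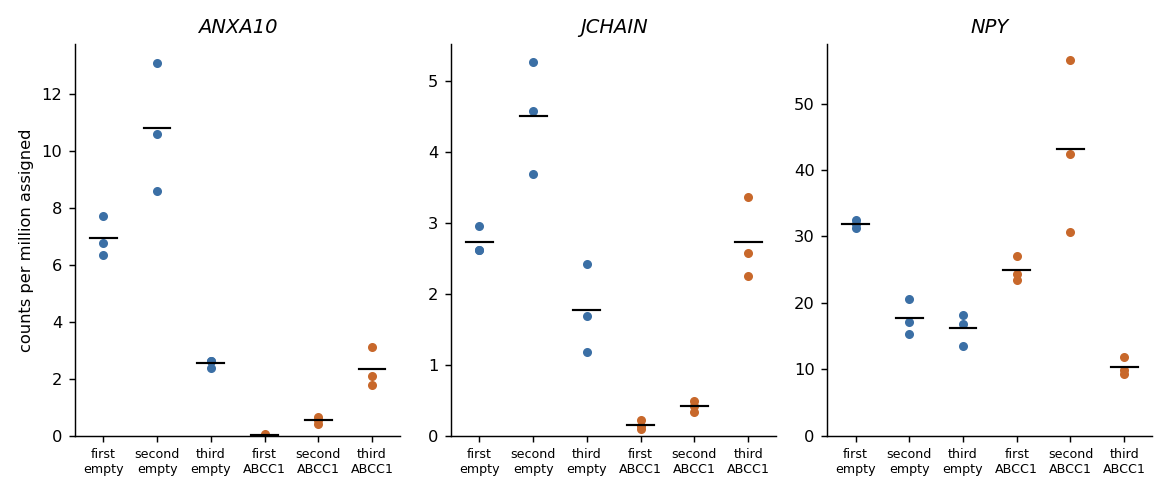
CPM of library totals of ANXA10, JCHAIN and NPY in the 3 libraries of each line and experiment, on linear axes from 0. Blue points are empty vector and orange points ABCC1 libraries, and the black bars are means of 3. ANXA10 and JCHAIN are high in the empty vector cells of the first and second experiments and low in their ABCC1 cells, while in the third experiment the lines lie together, and NPY falls most between the second and the third experiment in the ABCC1 cells.

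The chromosome medians differed. Over 4079 genes at 10 CPM per kilobase or more, the median log2FC ran from -0.40 on chromosome 22 and -0.41 on chromosome 19 to -0.97 on chromosome 4, and to -1.50 on chromosome 18, which had 22 genes. Over the 23 chromosomes these medians correlated with the median GC content of their genes with a Spearman rho of 0.784, a description, as the chromosomes share the same libraries. With the GC offset, chromosome 4 was at -0.15, chromosome 19 at -0.06 and chromosome 18 at -0.67. In median log2 CPM per library the highest and the lowest chromosome differed by 0.923 in their change, and by 0.521 over genes at 2 CPM per kilobase or more. The fitted median log2FC with the GC offset spanned 0.749 over the 23 chromosomes.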

How the data were processed

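Read pairs were counted per gene by the authors, and the values used here are the deposited whole-number counts of each library. Per the labels and the submitters' processing notes, reads were demultiplexed with bcl2fastq 2.18, aligned with STAR 2.7.3a and assigned to exons with featureCounts of Subread 2.0.0 on GRCh37 with the vectors added, without strand. Reads that fit several genes equally well can be lost in such counting. Of the rows, 57905 were Ensembl genes, 92 spike-ins and 6 vector sequences. The spike-ins stayed out of library sizes and tests. The vector rows entered library sizes and were fitted with the genes, and they were left out before p-values were adjusted. Symbols were matched for 39880 Ensembl genes from RefSeq tables, with GENCODE names where these gave none. Gene types came from GENCODE, and GC content was that of each gene's longest GENCODE transcript. The promoter windows came from RefSeq on GRCh38.p14, and no coordinate was converted between builds.

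Genes were kept by filterByExpr with a minimum count of 10 and tested with edgeR 4.0.16 (quasi-likelihood, TMM factors, R 4.3.3) in the 6 libraries, with Benjamini-Hochberg adjustment over 37283 genes. The common biological coefficient of variation was 25.5%. The interaction was fitted over 12 libraries. Alternatives used DESeq2 1.42.0, limma 3.58.1 (voom), RLE factors, library totals, other filters, background subtraction, thinned counts, a GC and length offset and libraries left out in turn. Library totals and the GC offset were chosen after seeing the data. Expressed genes are those at 5 times or more the mean density of olfactory receptor genes, 1.06 normalized CPM per kilobase. Figures and tables used Python 3.11.15, pandas 2.3.3 and scipy 1.17.1.

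The groups, members and gene lists were chosen with earlier results of these data known. Named genes were, in each direction, up to 12 protein-coding genes with the largest change among those called, with no overlap, at least 1 CPM and 5 times background, with called and role-defining members of each list and the most abundant called genes. In simulated counts of 37287 genes, the test of the third against the second experiment recovered 38% of changes of 1 log2 unit and 82% of changes of 2, with 14 false calls.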

Additional observations from a re-analysis of the deposited data

Results flagged for a closer look

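The change between the experiments differed between the empty vector and the ABCC1 cells for 3 genes by the interaction term of edgeR's quasi-likelihood test. The interaction was -4.14 for ANXA10, -4.05 for JCHAIN and 2.01 for NPY on the log2 scale. All 3 held in each of the 12 alternatives, with ranges of -8.83 to -3.90 for ANXA10, -12.51 to -3.85 for JCHAIN and 1.89 to 2.17 for NPY. The highest adjusted p among the alternatives was 0.0445, 0.0482 and 0.0236. The most extreme values came from subtraction of background, which can set low counts to 0. In the ABCC1 cells both genes lay between 0.838 and 1.33 times background in both experiments, and ANXA10 and JCHAIN rest on few counts, at most 31 and 24 in an empty vector library of the third experiment.

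Counts on the EGFP insert, a sequence that the labels of these lines do not name, were 31, 38 and 17 in the empty vector libraries of the second experiment and 15, 9 and 4 in those of the third. The ABCC1 libraries of the same experiments had 0 to 2, and the highest empty vector count was 38. The source of these counts was not tested.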

How the results depend on the processing

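The count of genes called in the third against the second experiment, 7219, was 4333 with background subtracted, 3789 among genes at 5 times background, 3152 with the GC and length offset and 18964 with library totals, and the first 3 of these tested fewer genes. It ran from 4328, without replicate 1 of the third experiment, to 10126, without replicate 1 of the second, and was 4455 without replicate 3 of the third. The count that also had an absolute log2FC of at least 1.5, 1071, was 662 among protein-coding genes, 268 among genes at 5 times background and 78 with the GC offset, and 744 to 1502 with a library left out. The interaction, called for 3 genes, was called for 37 with background subtracted, and for 3 to 7 with a library left out, 7 of them without replicate 2 of the second experiment. The difference between chromosome medians, 0.923, was 0.521 at 2 CPM per kilobase, 0.846 at 30, and 0.822 to 1.06 with a library left out. DESeq2 called 6592 genes, 12.7% of them higher, and the spread shared with the ABCC1 libraries gave 12.9% higher. Protein-coding genes alone gave 41.7%, a minimum of 10 counts in every library 42.9%, background subtraction 16.9% and the GC offset 48.8%.

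Of the single genes named, 18 had values on both sides of 0, and for 7 of them either the value with TMM or the turned one was called. On library totals ABCC1 was at 0.44, ADAM10 at 0.03, ALK at 0.68, GATA3 at 0.55, HSPA5 at 0.55 and PHOX2A at 0.55. With the GC offset ADAM10 was at 0.27, GATA3 at 0.38, HSPA5 at 0.57, PHOX2A at 0.40 and TOP2A at 0.21. Among genes at 5 times background ALK was at 0.50 and PHOX2A at 0.36. The other 11, with neither called, were APP, BACE1, CHGA, DBH, MALAT1, MKI67, MT-CO1, MYCN, RPL7A, RPS10 and SCG2. Some of these were called in alternatives that kept the direction. That held for SCG2 in 7 alternatives, BACE1 in 4, DBH and RPL7A in 3, CHGA and MKI67 in 2, and MALAT1 and MYCN in 1. APP, MT-CO1 and RPS10 were called in none. The cause of the turns was not tested. Leaving out a library moved the counts of called members by over 1.5 times in most lists, as given beside them, and left those of the ribosomal proteins at 39 to 57, of the nuclear respiratory chain at 27 to 36 and of the structural RNAs at 19 to 20. Same-numbered libraries correlated at 0.387, 0.40 and 0.0148, and replicate 3 of the third experiment correlated best with replicate 1 of the second, so the numbers were not taken as pairs. With the replicate block 8763 genes were called, 1102 passed both thresholds and the interaction was called for 4.

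The depth of the third experiment, about 10200000 assigned pairs on average, its higher background and the dependence of direction on the scaling limit what can be said of genes with low counts.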
